A study of Saccharomyces cerevisiae with 12 samples.

Results

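Late yeast cultures treated with NaHS were set against late cultures left untreated, with 3 libraries in each group, 6 of the 12 libraries in the series. Both groups were the budding yeast Saccharomyces cerevisiae BY4742, a haploid laboratory strain of mating type alpha that carries mutations in HIS3, LEU2, LYS2 and URA3. Both were grown in synthetic dextrose complete medium (SDC). NaHS is sodium hydrosulfide, which gives off hydrogen sulfide once dissolved, and in the late groups the treatment fell more than 72 h after inoculation. The other 6 libraries, early NaHS and early control cultures treated before 72 h, are used here only to ask whether the late change differed from the early one. The dose, the hour of sampling and the number of cultures behind each group are not in the labels, so the p-values measure the spread between these libraries, which may be technical. The series title ties late treatment to a longer chronological lifespan, and no survival values were analysed here.

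Chronological lifespan is the time for which yeast cells that have stopped dividing stay alive. After glucose is used up such cultures respire ethanol and acetate, and they switch on genes for storage, stress defence and the breakdown of reserves. Hydrogen sulfide is itself an intermediate of yeast metabolism. It is made from sulfate by the enzymes of the MET genes and is fixed into homocysteine, from which methionine, cysteine and glutathione are made. At higher levels it binds metals and blocks cytochrome c oxidase.

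Values were the authors' FPKM, fragments scaled by transcript length and library size, and every change below is a difference on the log2(FPKM + 1) scale, which understates the change of genes with low values. A gene rose or fell when limma, which fits a linear model to each gene and borrows the spread from all of them, gave a Benjamini-Hochberg adjusted p below 0.05. Column totals were 1538286, 1667681 and 1755548 FPKM in NaHS libraries 1 to 3, and 1510276, 2145467 and 1640670 FPKM in controls 1 to 3. Read counts were not analysed here and the depth of each library is unknown. Ribosomal RNA entries took 0.326%, 0.310% and 0.258% of the total in the NaHS libraries, against 0.265%, 0.956% and 3.60% in the controls, so control 3 stood apart in this respect. Log2 values correlated at 0.983 to 0.986 among the NaHS libraries, at 0.967 to 0.983 among the controls and at 0.930 to 0.957 between the groups. Of the strain markers, URA3, LYS2 and LEU2 had no value above 0 in any late library, nor had 5 of 6 mating type a genes, the exception being STE6 at 0.197 to 0.601 FPKM. Of 4 mating type alpha genes MF(ALPHA)1, STE3 and SAG1 were above 0 in all 6 libraries, with means of at least 9.55 FPKM in each group, and MF(ALPHA)2 was at 0. A 0 says little about absence here or below, since 777 protein-coding genes were at 0 in all 6 late libraries. HIS3, of which this strain keeps a part, had 119.6, 115 and 130.3 FPKM with NaHS, against 378, 522 and 385 FPKM in the controls, a change of -1.79 (adjusted p = 0.000808).

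Of 7126 rows that name a gene, 1357 were at 0 in all 6 libraries, 597 were at 0 in some of them and 207 had a mean under 1 FPKM, which left 4965 genes to test. With NaHS 311 genes rose (6.26% of those tested) and 562 fell (11.3%), 17.6% in all. The 3 values of each group stood apart in 1926 genes (38.8%), higher with NaHS in 947 (19.1%) and lower in 979 (19.7%). The change was at least 1 on the log2 scale in 162 of the genes that rose and in 395 of those that fell, and at least 2 in 30 and 86. The share of calls that were rises was 35.6%, and with upper-quartile scaling, where the median change of all genes was 0.15 and not 0.05, the calls were 440 higher and 485 lower. The count fell to 517 without control 3, 521 without NaHS 1, 498 without NaHS 2 and 472 without NaHS 3, and 371 genes (87 higher, 284 lower) were called whichever library was left out. In bulk RNA of a culture, a change in the share of cells that express a gene and a change in its RNA per cell cannot be told apart.

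**Figure D1:**
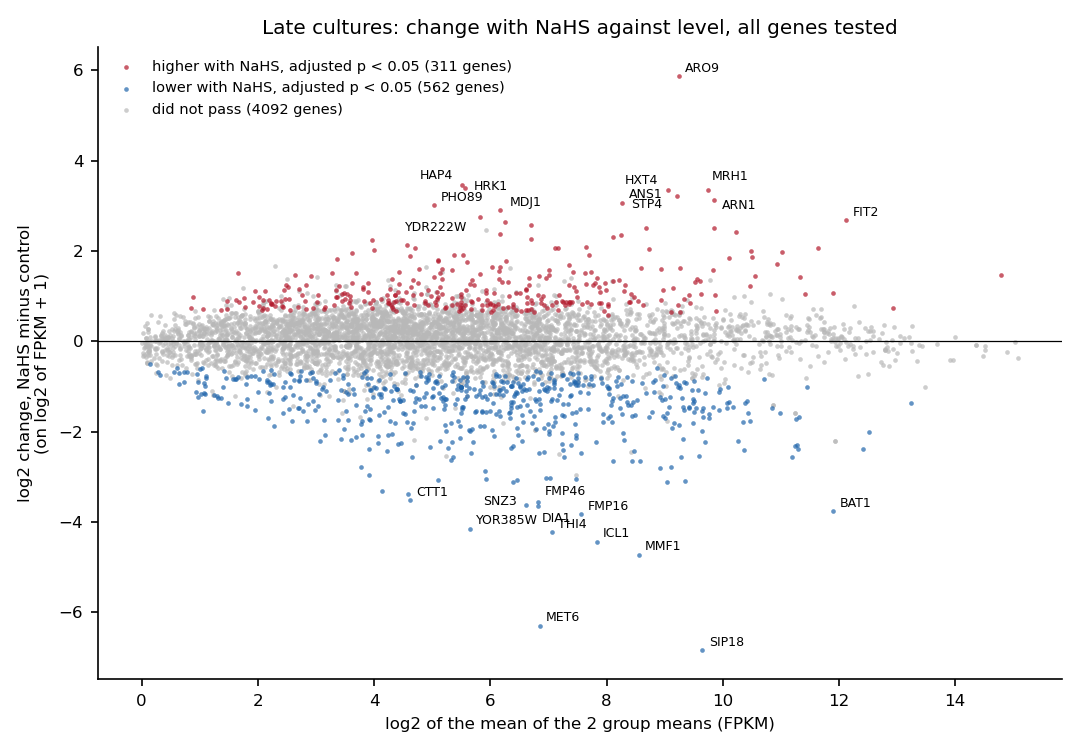
Change with NaHS in late cultures (vertical axis, NaHS minus control on the log2(FPKM + 1) scale) against mean level (horizontal axis, log2 FPKM) for the 4965 genes tested, 1 point per gene. Red points are the 311 genes that rose and blue points the 562 that fell, and the 12 largest rises and 12 largest falls named by the rule carry their names, from ARO9 at 5.88 to SIP18 at -6.84.

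The largest rise was that of ARO9, of the pathway that breaks amino acids down to fusel alcohols, and 8 of 11 tested genes of leucine, isoleucine and valine synthesis fell. In this pathway, named after Ehrlich, an aminotransferase takes the amino group off an aromatic or branched-chain amino acid and a decarboxylase and a dehydrogenase turn the remaining acid into an alcohol. The branched-chain amino acids themselves are built in the mitochondrion by the ILV enzymes and, for leucine, by LEU4, LEU9, LEU1 and LEU2, under the activators Gcn4 and Leu3. The 3 promoters below are shown because BAT1 and ARO9 had the largest fall and the largest rise of these pathways, and because LEU1, like BAT1, holds the letters of Leu3: BAT1 (YHR208W), the mitochondrial branched-chain aminotransferase, LEU1 (YGL009C), isopropylmalate isomerase, and ARO9 (YHR137W), the aromatic aminotransferase induced in yeast by aromatic amino acids through the activator Aro80. Each stretch holds the bases from 300 to 81 before the annotated start codon in the RefSeq R64 genome, read 5′ to 3′ on the strand of the gene, at chrVIII:517232-517451 (plus strand) for BAT1, chrVII:478733-478952 (minus strand) for LEU1 and chrVIII:375409-375628 (plus strand) for ARO9. Capitals mark the letters TGACTCA of Gcn4 in BAT1 and CCGG followed after 2 bases by CCGG of Leu3 in BAT1 and LEU1. In ARO9 they mark 5 matches to CCG followed after 7 bases by CCG of Aro80, on either strand. Only the matches in the stretch nearest the start codon overlap one another.
BAT1: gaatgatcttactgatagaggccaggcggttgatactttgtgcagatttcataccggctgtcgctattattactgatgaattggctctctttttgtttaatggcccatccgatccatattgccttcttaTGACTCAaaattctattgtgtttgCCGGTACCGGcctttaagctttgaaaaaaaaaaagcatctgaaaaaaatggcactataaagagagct
LEU1: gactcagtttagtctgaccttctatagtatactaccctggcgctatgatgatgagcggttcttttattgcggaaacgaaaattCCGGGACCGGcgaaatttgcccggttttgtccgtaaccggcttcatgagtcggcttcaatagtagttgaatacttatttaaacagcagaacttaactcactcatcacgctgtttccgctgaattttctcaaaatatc
ARO9: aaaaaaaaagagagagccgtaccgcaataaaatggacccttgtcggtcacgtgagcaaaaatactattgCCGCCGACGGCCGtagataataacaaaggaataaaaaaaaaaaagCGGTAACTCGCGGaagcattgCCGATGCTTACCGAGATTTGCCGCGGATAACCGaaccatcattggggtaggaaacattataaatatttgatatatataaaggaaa

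ARO9 (chromosome VIII, 375709 to 377250) had 1472, 1211 and 894 FPKM with NaHS, against 32.0, 7.30 and 27.7 FPKM in the controls. Every NaHS library was far above every control, and the rise was 5.88 on the log2 scale (SE 0.48, limma adjusted p = 0.000195). ARO10, the decarboxylase of the next step, was listed at 49.1, 18.4 and 18.4 FPKM with NaHS and at 0 in the 3 controls. ARO80 was at 0 in all 6 libraries. The constitutive aromatic aminotransferase ARO8 had 449, 371 and 467 FPKM with NaHS, against 737, 784 and 673 FPKM in the controls, a change of -0.77 that passed with all libraries (adjusted p = 0.0242) and missed the threshold without control 3 (0.0661), NaHS 1 (0.0655), NaHS 2 (0.0951) or NaHS 3 (0.0601). The coding sequences of ARO8 and ARO9 were 63.6% identical, with no shared run longer than 16 bases. Of the 15 genes of fusel alcohol formation, 10 were tested, of which 1 rose and 2 fell, against 6.26% and 11.3% of all genes tested, so that the counts were near those over all genes. BAT2, described next, is counted with the synthesis genes. The decarboxylase PDC5 had 85.3, 175 and 655 FPKM with NaHS, against 829, 519 and 879 FPKM in the controls, values that overlapped and did not pass (adjusted p = 0.0886), and ADH5, an alcohol dehydrogenase, had a change of -1.12 that lost its call without control 3 (0.0592), NaHS 1 (0.0809) or NaHS 2 (0.0698).

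The pair of branched-chain aminotransferases moved in opposite directions. BAT1 (chromosome VIII, 517532 to 518713), the mitochondrial enzyme that completes synthesis, had 531, 529 and 494 FPKM with NaHS, against 5459, 8933 and 6997 FPKM in the controls. BAT2 (chromosome X, 705744 to 706874), the cytosolic enzyme that starts breakdown, had 1853, 1624 and 1241 FPKM with NaHS, against 257, 294 and 264 FPKM in the controls. The groups did not overlap for either gene, and the changes were -3.75 (SE 0.23, adjusted p = 6.23e-05) for BAT1 and 2.51 (SE 0.21, adjusted p = 0.000204) for BAT2. In the controls BAT1 was the more abundant transcript per length and with NaHS BAT2 was. The coding sequences were 72.5% identical with a longest shared run of 17 bases.

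Of the 12 genes of leucine, isoleucine and valine synthesis, 11 were tested, 8 fell (72.7%, against 11.3% of all genes) and 1, BAT2, rose. The median change was -1.47, against 0.05 over all genes, and between 6 and 8 fell with any library left out. ILV5, the reductoisomerase, had 699.6, 406 and 992 FPKM with NaHS, against 2687, 4530 and 4730 FPKM in the controls (-2.56). ILV3, the dehydratase, which holds an iron-sulfur cluster, had 816, 737 and 822 FPKM with NaHS, against 3043, 5655 and 4042 FPKM in the controls (-2.38). The smaller subunit of acetolactate synthase, ILV6, changed by -1.47 and its catalytic subunit ILV2 by -0.88 (adjusted p = 0.0355), a call that was lost when any library but control 2 was left out. On the leucine branch, the isopropylmalate synthase LEU4 fell by 2.23 (LEU9, its paralog, changed by -0.90), and OAC1, the carrier that brings isopropylmalate out of the mitochondrion, fell to 113, 154 and 139 FPKM with NaHS, against 1414, 855 and 1233 FPKM in the controls. LEU1, another iron-sulfur enzyme, was listed at 0 with NaHS and at 1087, 531 and 1215 FPKM in the controls. No fold is given for it, since a 0 in a table without counts can be a failed estimate. The threonine deaminase ILV1 (-0.42, adjusted p = 0.321) and the regulator LEU3 (0.61, adjusted p = 0.094) did not pass.

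Letters of Gcn4, the activator that amino acid shortage induces, were searched on both strands in the 300 bases before each start codon. They were found in 157 of 6020 promoters of protein-coding genes (2.61%), in 6 of 12 of the branched-chain list (ILV6, ILV5, ILV3, BAT1, LEU4 and LEU9) and in 4 of 6 of the histidine list. Of the 132 tested genes with these letters, 45 fell (34.1%, against 11.3% of all genes tested) and 5 rose, with a median change of -0.33. Outside the amino acid synthesis lists 20 of 100 fell. With 1 library left out between 34 and 45 of the genes with the letters fell. Without control 3 it was 34 (25.8%, against 7.34% of all genes tested). Outside the lists 12 fell without NaHS 3 (12.1%, against 7.11% of all genes tested). There 13 fell without NaHS 2 (13.1%, against 7.27%) or control 3 (13%, against 7.34%). The GCN4 transcript had 1523, 1453 and 2025 FPKM with NaHS, against 1743, 1507 and 1610 FPKM in the controls, which overlapped (log2 change of 0.03, adjusted p = 0.94). The letters of Leu3 stood in 9 promoters (0.15%). Of these LEU2 was at 0 in all libraries, LEU1 was at 0 with NaHS, BAT1, the ATP synthase subunit ATP5 (-0.94) and the mitochondrial carrier FSF1 (-1.56) fell, and GAT1, DRE2, GAL11 and BRO1 did not pass. ATP5 lost its call without control 3. Aro80 letters stood in 163 promoters (2.71%), those of ARO9, ARO10 and ARO80 among them, and of the 127 tested genes that hold them 7 rose (5.51%, against 6.26% of all genes) and 23 fell (18.1%, against 11.3%). A match of letters says nothing about binding.

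**Figure D2:**
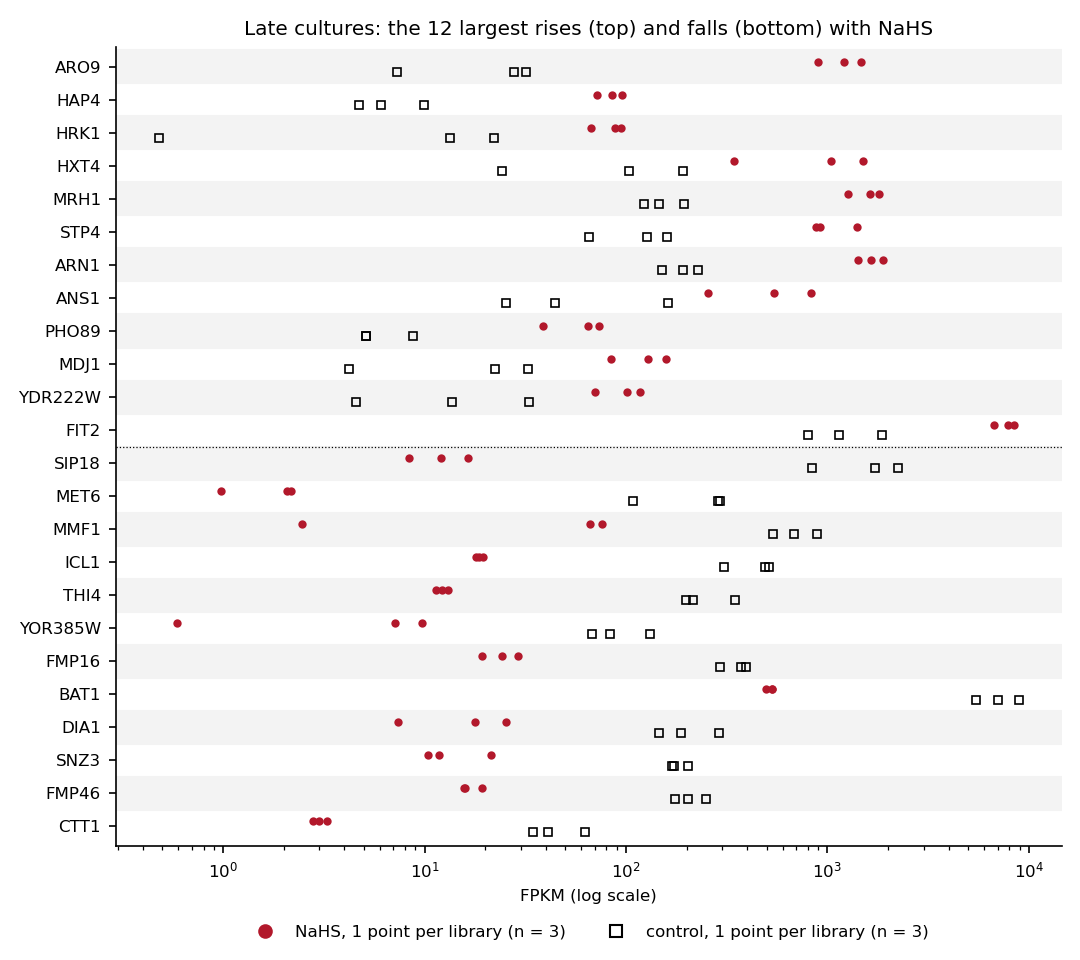
FPKM (log axis) in each of the 3 NaHS libraries (filled red circles, upper line of each row) and the 3 control libraries (open squares, lower line) for the 12 largest rises and 12 largest falls among genes with a mean of at least 10 FPKM and no overlap between groups. The rises run from ARO9 down to FIT2 and the falls from SIP18 down to CTT1, and single low libraries stand out for HRK1 among the controls and for MMF1 and YOR385W among the NaHS libraries.

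Many of the genes that take up sulfate and turn it into methionine and cysteine fell with NaHS, and no tested gene of these steps rose with all libraries. The promoter of MET10 (YFR030W), a subunit of the sulfite reductase that makes sulfide, is shown because it holds the letters of both binding partners of the sulfur activator Met4. It covers bases 300 to 81 before the start codon at chrVI:213012-213231 (plus strand, R64). Capitals mark 2 matches to CACGTG of Cbf1 and 1 to TGTGGC of Met31.
MET10: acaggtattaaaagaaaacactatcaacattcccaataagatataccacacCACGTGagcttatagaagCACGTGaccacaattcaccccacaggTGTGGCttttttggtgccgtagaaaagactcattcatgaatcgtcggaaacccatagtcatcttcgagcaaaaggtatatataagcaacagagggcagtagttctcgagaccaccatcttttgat

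Of 10 genes of sulfate uptake and reduction 6 fell (60.0%, median change of -1.35), and 6 or 7 did with any library left out. The sulfate permease SUL2 had 6.78, 5.68 and 6.03 FPKM with NaHS, against 65.6, 36.7 and 85.2 FPKM in the controls (-3.07, SE 0.30, adjusted p = 0.000474). MET10 had 13.8, 9.98 and 16.8 FPKM with NaHS, against 131, 68.5 and 122 FPKM in the controls (-2.87, SE 0.30). The other sulfite reductase subunit MET5 changed by -1.75, and MET14 and MET16, the kinase and the reductase before it, each by -1.54. The second sulfate permease SUL1 did not pass (0.03, adjusted p = 0.959), and neither did MET3, the sulfurylase of the entry step (-1.16, adjusted p = 0.0708). Cbf1 letters were in 6 and Met31 letters in 7 of these 10 promoters, against 3.55% and 8.07% of all promoters. Over all tested genes 26 of 166 with Cbf1 letters fell (15.7%) and 66 of 382 with Met31 letters (17.3%), against 11.3% of all genes. Outside the amino acid synthesis lists these were 17 of 151 (11.3%) and 49 of 358 (13.7%), close to the share over all genes.

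Of 10 genes that fix sulfide, pass sulfur between homocysteine and cysteine or export it, 4 fell (40.0%, against 11.3% of all genes tested). The median change was -0.64, and 4 fell with any library left out as well. MET17, which joins sulfide to acetylhomoserine, had 17.1, 18.1 and 12.5 FPKM with NaHS, against 212, 94.7 and 147 FPKM in the controls. The open reading frame YLR302C overlaps MET17 on the opposite strand, and whether reads were assigned by strand is not given in the sources used here. CYS3, which makes cysteine and can release hydrogen sulfide, had 91.2, 92.1 and 98.1 FPKM with NaHS, against 687, 626 and 494 FPKM in the controls (-2.66, SE 0.19, adjusted p = 0.000136). MET2, which makes the acetylhomoserine, changed by -1.27 and the cystathionine lyase STR3 by -1.48. The sulfite exporter SSU1 (-0.45, adjusted p = 0.122) and the cystathionine synthase CYS4 did not pass. CYS4 had 379, 301 and 380.2 FPKM with NaHS, against 286, 105 and 204 FPKM in the controls, higher in every NaHS library (0.94, adjusted p = 0.092).

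The methionine cycle held the largest fall of the sulfur genes. MET6 (YER091C, chromosome V, 339864 to 342167), the methionine synthase, had 2.08, 0.975 and 2.18 FPKM with NaHS, against 293, 108 and 287 FPKM in the controls. The change was -6.29 (SE 0.40, adjusted p = 7.41e-05) and lay between -6.90 and -4.996 over the settings tried, both ends set by the pseudocount. MET13, the reductase that supplies its methyl donor, had 1.88, 3.10 and 4.41 FPKM with NaHS, against 31.7, 27.1 and 75.2 FPKM in the controls (-3.37). Of 14 genes of methionine synthesis, the methyl cycle and uptake 12 were tested. Of these 7 fell (58.3%, against 11.3% of all genes tested), between 5 and 7 with 1 library left out. The genes that fell included the S-adenosylmethionine synthetase SAM1, at 719, 715 and 631 FPKM with NaHS, against 2489, 2086 and 1682 FPKM in the controls. The methionine permeases MUP1 (-1.43) and MUP3 (-1.40) were also among them. SAM3, the S-adenosylmethionine permease, was at 0 with NaHS and at 19.8, 12.04 and 11.1 FPKM in the controls. Among the regulators, MET28, a partner of Met4, was at 0 with NaHS and at 28.9, 63.6 and 54.4 FPKM in the controls, while MET4 itself (0.60, adjusted p = 0.18) and CBF1 (0.38, adjusted p = 0.268) did not pass. MET30, part of the ubiquitin ligase that holds Met4 in check, had 16.3, 61.0 and 11.4 FPKM with NaHS, against 129, 68.7 and 71.0 FPKM in the controls (-1.87, adjusted p = 0.0478), a call that was lost when any library but NaHS 2 was left out (0.0717 to 0.149).

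Among genes that use cysteine for redox defence more fell than rose. Of 27 tested genes of glutathione, thioredoxin and glutaredoxin, 10 fell (37.0%, against 11.3% of all genes tested). Another 2 rose (7.41%, against 6.26%), near the share over all genes. The count that fell was 7 to 13 with 1 library left out, and 1 rose. GTT1, a glutathione transferase, had 31.9, 27.2 and 25.1 FPKM with NaHS, against 240.2, 258 and 204 FPKM in the controls (-3.02, SE 0.19, adjusted p = 7.41e-05). The glutathione importer OPT1 changed by -2.26, the dipeptidase DUG1 of glutathione breakdown by -2.63 and the thioredoxin TRX1 by -2.07. The cytosolic thioredoxin reductase TRR1 had 693, 875 and 782 FPKM with NaHS, against 340.4, 382 and 313 FPKM in the controls, a rise of 1.18 (SE 0.19, adjusted p = 0.00439). Its mitochondrial counterpart TRR2 moved the other way, with 21.7, 27.1 and 19.0 FPKM with NaHS, against 51.0, 81.0 and 51.9 FPKM in the controls (-1.38, adjusted p = 0.00715), and their coding sequences were 77.4% identical. Of 16 tested genes of peroxide and superoxide defence 6 fell and 1 rose, to be set beside the same shares over all genes. Cytosolic catalase CTT1 had 2.81, 3.28 and 3.01 FPKM with NaHS, against 34.5, 41.2 and 63.0 FPKM in the controls (-3.51), while peroxisomal catalase CTA1 (-0.22, adjusted p = 0.536) and the copper-zinc superoxide dismutase SOD1 (0.01, adjusted p = 0.987) did not pass. Mitochondrial superoxide dismutase SOD2 (-1.68) and the peroxide sensor HYR1 (-2.02) fell, and the glutathione peroxidase GPX2 rose (1.92).

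**Figure D3:**
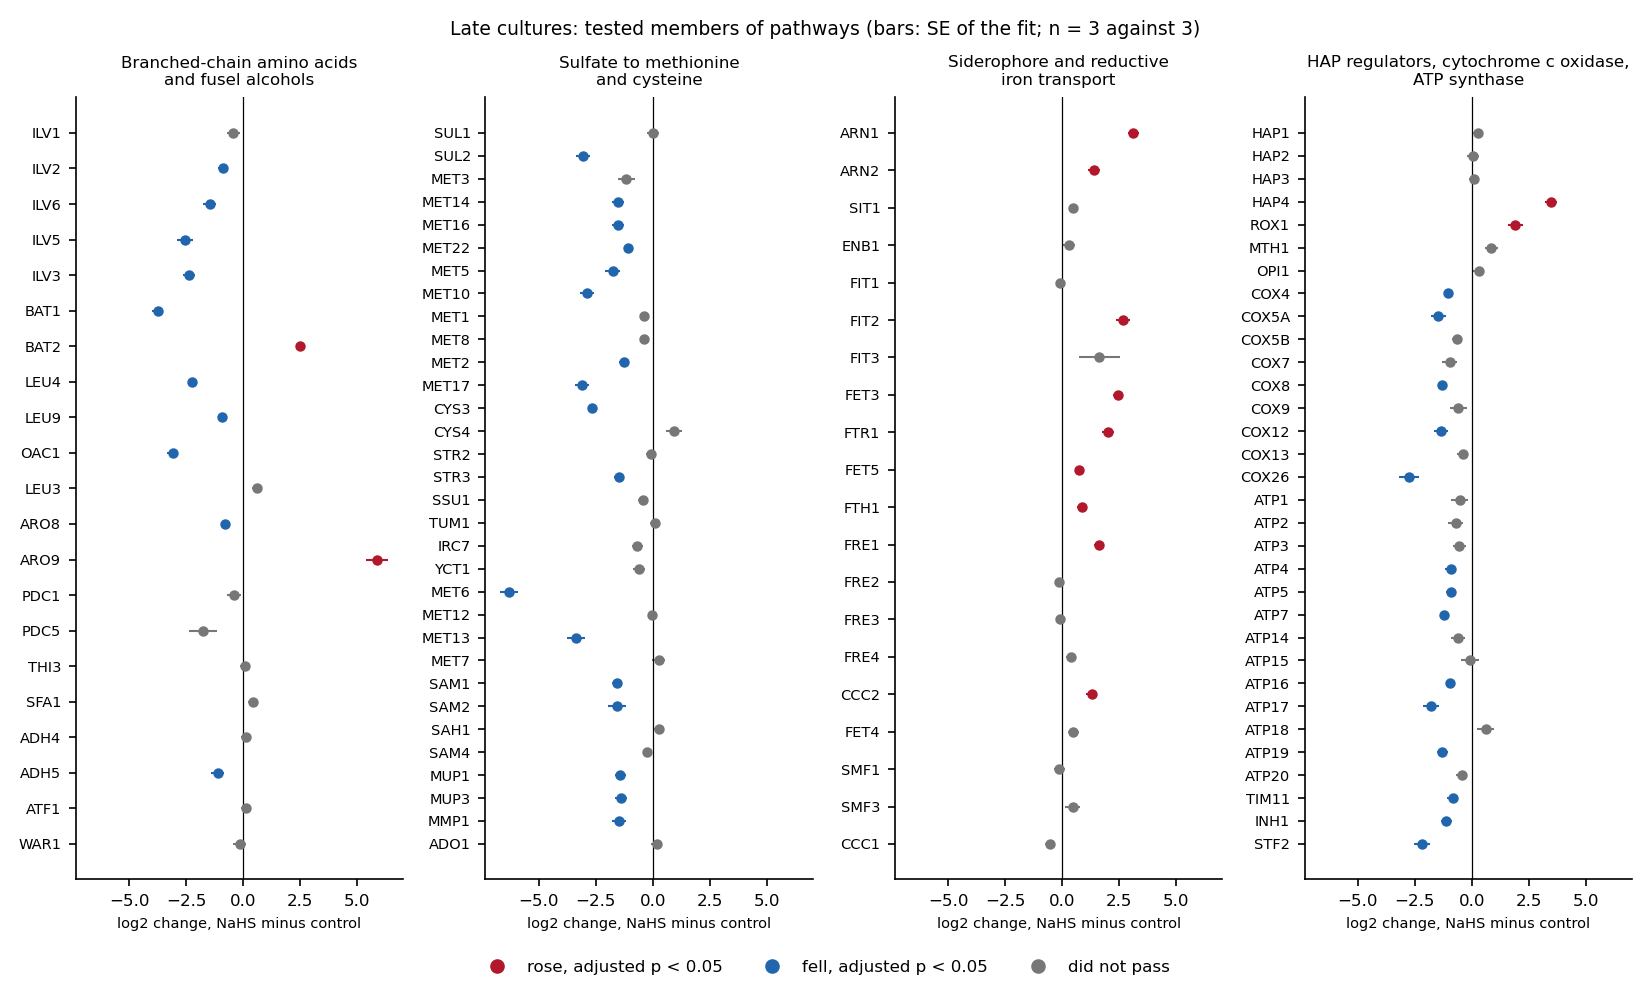
Log2 change with NaHS (NaHS minus control on the log2(FPKM + 1) scale, horizontal axis) of each tested member of 4 pathway groups, with the standard error of the fit as bars (n = 3 libraries against 3). Blue points fell, red points rose and grey points did not pass. Blue predominates in the branched-chain and sulfur panels, with BAT2 and ARO9 as the red exceptions, and the iron panel holds red and grey points. In the last panel HAP4 and ROX1 are red above blue genes of the cytochrome c oxidase and ATP synthase lists.

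Some genes of both routes of iron uptake rose. Yeast takes up iron either bound to siderophores, through the ARN transporters with the FIT wall proteins holding the chelates near the cell, or as free iron reduced by FRE reductases and carried in by the FET3 and FTR1 complex. Both routes are switched on by Aft1 when iron-sulfur clusters run short. The promoters of ARN1 (YHL040C, chrVIII:21052-21271, minus strand) and FIT2 (YOR382W, chrXV:1059231-1059450, plus strand) are shown as those of the largest rises of the group, again over bases 300 to 81 before the start codon in R64. Capitals mark GCACCC of Aft1 on either strand, 1 match in ARN1 and 3 in FIT2.
ARN1: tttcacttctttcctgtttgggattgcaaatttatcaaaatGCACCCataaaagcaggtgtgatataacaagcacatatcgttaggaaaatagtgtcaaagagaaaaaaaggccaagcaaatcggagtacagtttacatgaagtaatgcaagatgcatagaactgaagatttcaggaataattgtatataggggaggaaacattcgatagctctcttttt
FIT2: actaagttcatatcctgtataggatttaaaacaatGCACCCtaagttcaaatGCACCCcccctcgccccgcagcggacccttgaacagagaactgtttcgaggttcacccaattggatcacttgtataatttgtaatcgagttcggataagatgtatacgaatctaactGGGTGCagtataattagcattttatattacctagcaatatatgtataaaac

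Of the 7 siderophore and FIT genes 3 rose (42.9%, against 6.26% of all genes), the same number with any library left out, and none fell. ARN1 (chromosome VIII, 19088 to 20971) had 1643, 1887 and 1411 FPKM with NaHS, against 150.3, 229 and 191 FPKM in the controls, a rise of 3.12 (SE 0.22, adjusted p = 0.000119). FIT2 (chromosome XV, 1059531 to 1059992) had 8478, 7842 and 6689.6 FPKM with NaHS, against 800.2, 1861 and 1142 FPKM in the controls, a rise of 2.68 (SE 0.31, adjusted p = 0.000922). ARN2 rose by 1.37. The wall protein FIT3 had 29.9, 128 and 201 FPKM with NaHS, against 6.33, 65.8 and 55.0 FPKM in the controls, and the wide spread within both groups left it short of the threshold (1.62, adjusted p = 0.243). The transporters SIT1 (0.47, adjusted p = 0.103) and ENB1 (0.29, adjusted p = 0.48) and the wall protein FIT1 (-0.09, adjusted p = 0.777) did not pass.

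Of 13 tested genes of reductive and low-affinity iron transport 6 rose (46.2%) and none fell. Without control 2 again 6 rose. With any other library left out 4 did, and without control 1 the list also held 1 fall. FET3, the multicopper oxidase, had 2259.5, 1867 and 1932 FPKM with NaHS, against 364, 426 and 343 FPKM in the controls (2.42, SE 0.19, adjusted p = 0.000157). Its permease partner FTR1 had 3881, 3333 and 2727 FPKM with NaHS, against 803, 1141 and 625 FPKM in the controls (1.98, SE 0.26). The surface reductase FRE1 rose by 1.60 and CCC2, the pump that loads copper into FET3, by 1.29. The vacuolar pair FET5 and FTH1 changed by 0.73 and 0.85, and the reductases FRE2, FRE3 and FRE4, the low-affinity transporter FET4 and the vacuolar iron store CCC1 did not pass. Aft1 letters were in 6 of 7 siderophore and FIT promoters and in 8 of 15 of the reductive list, against 4.05% of all promoters. Over all 183 tested genes with these letters 16 rose (8.74%, against 6.26% of all genes) and 24 fell (13.1%, against 11.3%), near the shares over all genes.

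AFT1 was at 0 in all 6 libraries and AFT2 did not pass (0.26, adjusted p = 0.574). MRS4, which carries iron into mitochondria, was listed at 58.9, 55.0 and 24.1 FPKM with NaHS and at 0 in the controls, while its paralog MRS3 was at 0 throughout. Of 20 tested genes of iron-sulfur cluster assembly none rose and 2 fell, against 6.26% and 11.3% of all genes tested, so that the counts were near those over all genes. The targeting factor ISA1 had 180.3, 161 and 144 FPKM with NaHS, against 306, 404 and 379 FPKM in the controls (-1.16). The frataxin YFH1 (-0.87, adjusted p = 0.0467) lost its call when control 2, control 3 or any 1 of the NaHS libraries was left out, which left 1 fall in the list. The scaffold genes ISU1 (0.60, adjusted p = 0.0812) and ISU2 (-0.24, adjusted p = 0.57) and the desulfurase NFS1 (0.46, adjusted p = 0.117) did not pass. The metallothioneins CUP1-1 and CUP1-2, copies whose deposited values were identical in every library, had 15130.1, 25084 and 18086 FPKM with NaHS, against 10389, 33159 and 24034 FPKM in the controls, which overlapped (adjusted p = 0.901).

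Some genes for the synthesis of further amino acids, purines and vitamins also fell. Over all genes tested 6.26% rose and 11.3% fell, to be set beside the counts of each list here and in the paragraphs that follow. Of 6 histidine genes 4 fell, and 4 or 5 did with 1 library left out, among them HIS4 (-2.15) and HIS5, which had 49.1, 49.6 and 51.9 FPKM with NaHS, against 195, 179 and 203 FPKM in the controls. Of 15 tested genes of serine, glycine and one-carbon metabolism 8 fell (53.3%, between 6 and 9 with 1 library left out). SER1, the serine-forming aminotransferase, had 31.0, 32.7 and 40.0 FPKM with NaHS, against 188, 202 and 194 FPKM in the controls (-2.47, SE 0.19, adjusted p = 0.000148). GCV1, GCV2 and GCV3 of the glycine cleavage system changed by -1.95, -1.92 and -2.15. In arginine metabolism 5 of 14 tested genes fell, led by argininosuccinate lyase ARG4 (117, 82.0 and 116 FPKM with NaHS, against 681, 594 and 690.2 FPKM in the controls). The count was 3 without NaHS 1, and arginase CAR1, the breakdown enzyme, had a change of 1.31 that lost its call without NaHS 1 (adjusted p = 0.0905) or NaHS 2 (0.085). Of 11 tested aromatic amino acid genes 5 fell, among them TRP4 (-1.59) and TRP5 (-1.27), but 2 did without control 3, NaHS 1 or NaHS 2. Of 9 genes of the homoserine and threonine branch 2 fell, HOM2 (-1.70) and HOM6 (-0.92), and without NaHS 3 HOM6 did not pass (0.0518). Glutamate synthase GLT1 fell to 42.9, 48.8 and 44.6 FPKM with NaHS, against 151, 137 and 138 FPKM in the controls. In lysine synthesis 2 of 8 genes fell, 1 without control 1, control 3, NaHS 1 or NaHS 2, and the homocitrate synthase LYS20 rose (1.53).

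Of 14 tested purine genes 8 fell. The step enzymes ADE1, ADE8 and ADE13 changed by -1.66, -1.58 and -1.65, and the count was 4 without control 3 and 2 without NaHS 1 or NaHS 2. Of 15 tested thiamine genes 7 fell, between 6 and 10 with 1 library left out (10 without control 2). THI4 (YGR144W, chromosome VII, 780399 to 781379), which makes the thiazole half-molecule and gives up a sulfur atom from its own backbone to do so, had 12.1, 13.1 and 11.4 FPKM with NaHS, against 346, 216 and 199.7 FPKM in the controls (-4.23, SE 0.24, adjusted p = 6.03e-05). Of 6 biotin genes 4 fell, and 3 did with a NaHS library left out. They included the biotin synthase BIO2, another iron-sulfur enzyme, at 140.5, 148 and 163 FPKM with NaHS, against 603, 435 and 367 FPKM in the controls. Of 8 tested vitamin B6 genes 3 fell. SNZ3 had 10.4, 11.8 and 21.4 FPKM with NaHS, against 204, 170.2 and 174 FPKM in the controls (-3.62), and SNZ2, whose coding sequence is 99.3% identical to that of SNZ3, changed by -3.08. How reads were shared between these copies is not known. SNZ1, the stationary-phase member, did not pass (-0.33, adjusted p = 0.324). The third call, SNO2, was lost when control 1, control 3 or any 1 of the NaHS libraries was left out.

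Among 26 permease and sensor genes 8 fell and 1 rose (3 without control 1 or control 2). The count that fell was 5 without control 3 and 4 without NaHS 2 or NaHS 3. BAP2, a permease for branched-chain amino acids, had 535, 669 and 752 FPKM with NaHS, against 2446, 2212 and 1917 FPKM in the controls (-1.75), and the GABA permease UGA4 changed by -1.71. STP4 (YDL048C, chromosome IV, 366739 to 368211), a zinc finger protein related to the factors that switch on amino acid permeases, had 1401, 875 and 915 FPKM with NaHS, against 65.8, 127 and 159 FPKM in the controls, a rise of 3.23 (SE 0.34, adjusted p = 0.000644). Its relative STP3 had 2014, 1792 and 1393 FPKM with NaHS, against 585, 1269 and 851 FPKM in the controls, above them in every library but just short of the threshold (0.996, adjusted p = 0.0517). Among 23 tested nitrogen catabolite genes 6 fell, with the allantoate permease DAL5 at -2.10 and the GABA aminotransferase UGA1 at -1.67, and 3 did without NaHS 2 or NaHS 3.

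**Figure D4:**
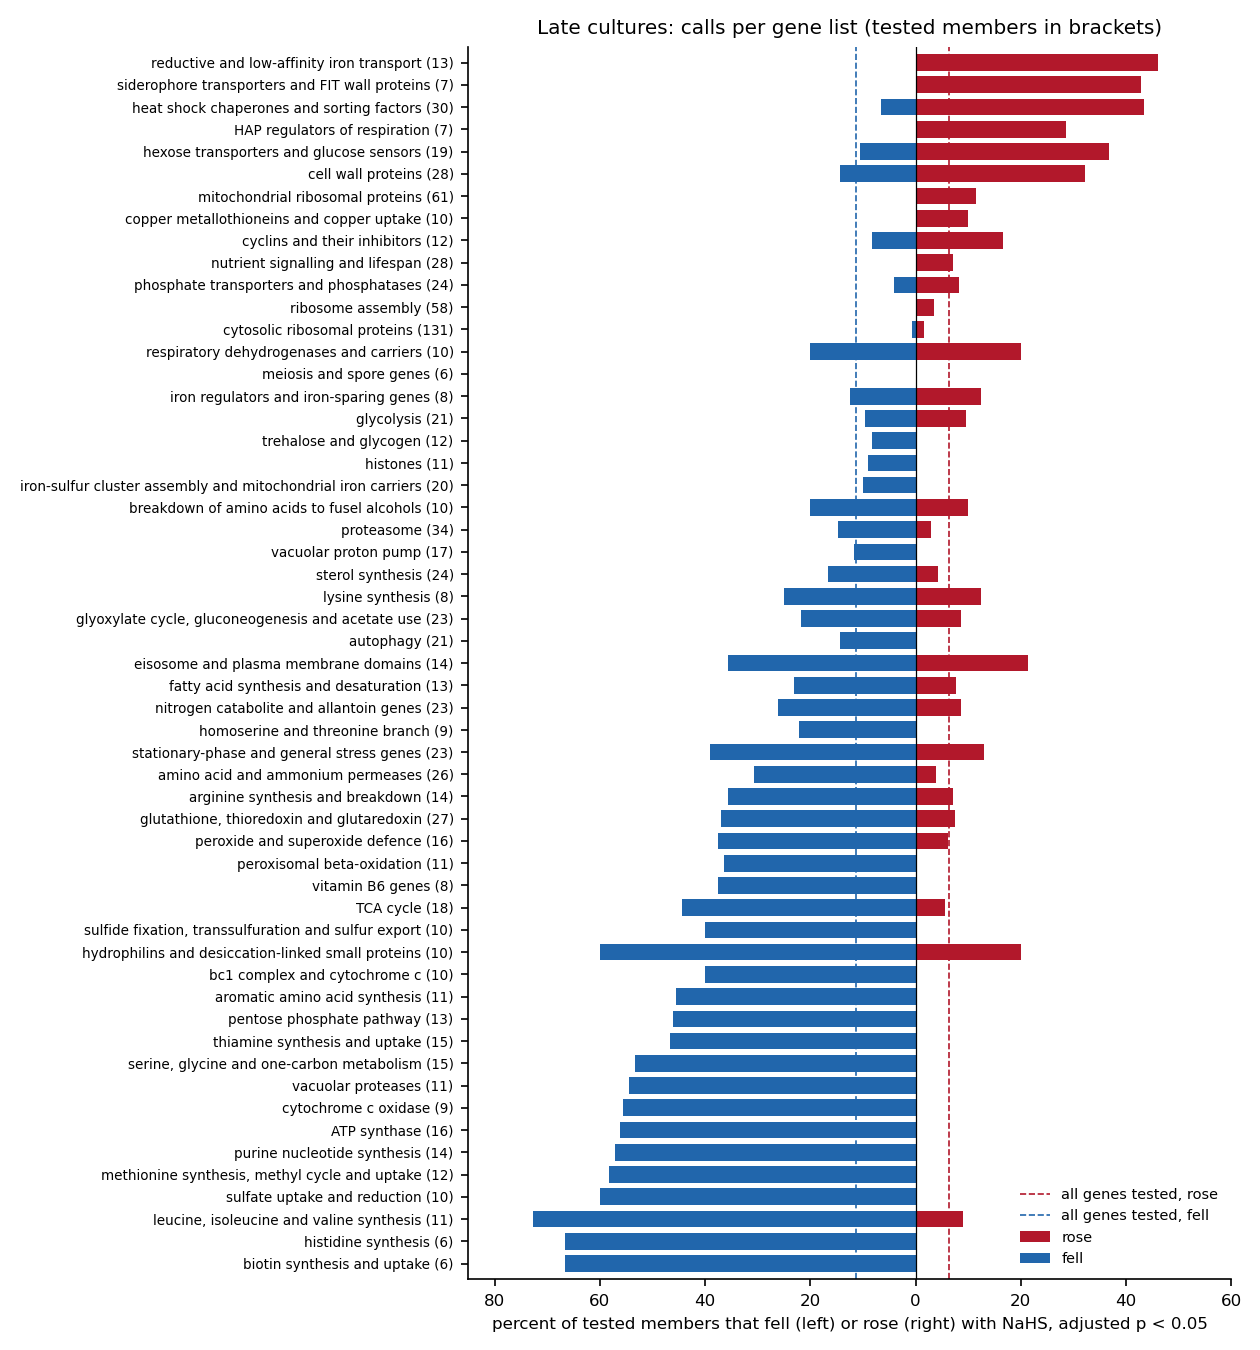
Percent of the tested members of each gene list that rose (red, to the right) or fell (blue, to the left) with NaHS in late cultures at an adjusted p below 0.05, with the number tested in brackets and lists ordered by the difference of the 2 shares. Dashed lines give the shares over all 4965 genes, 6.26% risen and 11.3% fallen. Iron transport and heat shock lists are at the top, and biotin, histidine and branched-chain synthesis at the bottom.

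In respiration a regulator rose and the machinery it is known to activate fell in part. HAP4 (YKL109W, chromosome XI, 232227 to 233891), the activating subunit of the Hap2/3/4/5 complex that drives respiratory genes in yeast, had 95.2, 85.4 and 71.5 FPKM with NaHS, against 4.76, 6.07 and 9.99 FPKM in the controls. All NaHS values were far above all control values (3.46, SE 0.27, adjusted p = 0.000157). The DNA-binding subunits HAP2 (0.05) and HAP3 (0.09) did not pass and HAP5 was at 0 in all 6 libraries. ROX1, a repressor of genes for low oxygen, had 427, 256 and 297 FPKM with NaHS, against 104, 49.2 and 118 FPKM in the controls (1.90, adjusted p = 0.00757). HAP4 and ROX1 were the 2 of 7 tested regulators that rose, with every library left out in turn as well.

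Of 9 tested nuclear subunits and factors of cytochrome c oxidase, the enzyme that sulfide inhibits, 5 fell and none rose. The count was 8 without control 1, 2 without control 3 and 3 without NaHS 3. COX26, a small subunit, had 145, 159 and 88.7 FPKM with NaHS, against 428, 1395 and 1114 FPKM in the controls (-2.77, adjusted p = 0.00372). COX8 had 139, 167 and 159 FPKM with NaHS, against 379.9, 333 and 453 FPKM in the controls (-1.31). COX6 was at 0 with NaHS and at 86.0, 23.4 and 90.0 FPKM in the controls. Of 16 tested ATP synthase genes 9 fell (56.2%), led by STF2 (-2.19), ATP17 (-1.80) and ATP19 (-1.31). STF2 is not a subunit of the enzyme and is counted a further time below, with the genes listed as linked to drying. The count was 5 without control 3 and 6 without NaHS 3. In the bc1 complex 4 of 10 fell, and 1 did without control 3 or NaHS 3 and 2 without control 2, NaHS 1 or NaHS 2. Letters of the Hap complex (CCAAT) are common, in 41.7% of all promoters, and were in 8 of 10 cytochrome c oxidase and 16 of 17 ATP synthase promoters. Of all 1930 tested genes with these letters 119 rose (6.17%) and 251 fell (13.0%), near the shares over all genes.

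Of 18 tested TCA cycle genes 8 fell (44.4%, between 6 and 9 with 1 library left out) and 1 rose. The falls lay around succinate and in side branches. Succinate dehydrogenase subunits SDH2 (319.9, 261 and 210.5 FPKM with NaHS, against 794, 949.7 and 1092 FPKM in the controls), SDH3 (-1.50) and SDH1 (-1.58) fell, SDH1 missing the threshold without control 3 (0.0506). The ligase subunit LSC2 changed by -1.21, fumarase FUM1 by -1.39 and the minor citrate synthase CIT3 by -2.24. The major citrate synthase CIT1 (-0.15) and the isocitrate dehydrogenase subunits IDH1 (0.19) and IDH2 (0.08) did not pass. Of the pyruvate carboxylase pair, which refill the cycle with oxaloacetate, PYC1 had 295, 259 and 209 FPKM with NaHS, against 84.6, 72.1 and 108 FPKM in the controls (1.52, adjusted p = 0.00293). PYC2 had 57.0, 41.2 and 61.6 FPKM with NaHS, against 156, 92.7 and 155 FPKM in the controls (-1.30, adjusted p = 0.0126). Without control 3 (0.0534) or NaHS 2 (0.0506) PYC2 missed the threshold. The coding sequences were 85.5% identical and shared a run of 200 bases, so reads could be split between them.

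The glyoxylate cycle, which lets cells grow on acetate and ethanol, had falls in both of its dedicated enzymes. Of 23 tested genes of this cycle, gluconeogenesis and acetate use 5 fell and 2 rose (9 fell without control 1 and 3 without control 3, and the rises were 0 without control 1, NaHS 1 or NaHS 2 and 1 with any other library left out). ICL1 (YER065C, chromosome V, 285241 to 286914), isocitrate lyase, had 18.6, 18.1 and 19.6 FPKM with NaHS, against 512, 305 and 492 FPKM in the controls (-4.43, SE 0.24, adjusted p = 6.03e-05). MLS1, malate synthase, had 7.31, 5.93 and 6.28 FPKM with NaHS, against 34.7, 42.9 and 54.5 FPKM in the controls (-2.57). The gluconeogenic enzymes PCK1 (0.37, adjusted p = 0.327) and FBP1 (0.34, adjusted p = 0.473) did not pass. Among the respiratory dehydrogenases, the lactate dehydrogenase DLD1 had 531, 431 and 567 FPKM with NaHS, against 72.3, 133 and 99.3 FPKM in the controls, a rise of 2.35, and the external NADH dehydrogenase NDE2 fell by 2.13. The ADP/ATP carrier AAC1 was at 0 with NaHS and at 110.1, 244.5 and 136 FPKM in the controls, while the main carrier PET9 did not pass (-0.46, adjusted p = 0.218). In the pentose phosphate pathway 6 of 13 genes fell, led by the minor paralogs TKL2 (-3.32), GND2 (-2.07) and NQM1 (-1.87). Their major counterparts TKL1 (0.43), GND1 (0.07) and TAL1 (0.69) did not pass. The other falls were RPE1 (-1.80), ZWF1 (-1.64) and SOL4 (-1.05), and each lost its call without control 3, NaHS 1 or NaHS 2. The count that fell was 3 without control 3, NaHS 1 or NaHS 2 and 4 without NaHS 3.

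Some hexose transporter genes rose. Of 19 tested transporter and sensor genes 7 rose (36.8%) and 2 fell (1 with any library but control 1 left out), but 3 rose without control 3 or NaHS 1, 2 without NaHS 2 and 4 without NaHS 3. HXT1, the low-affinity transporter, had 1446, 1457 and 1149 FPKM with NaHS, against 532, 629 and 271 FPKM in the controls (1.58, adjusted p = 0.0112). HXT4 had 1500.2, 1041 and 344 FPKM with NaHS, against 24.2, 192 and 104 FPKM in the controls, a wide spread in both groups. Its change of 3.35 (SE 0.75, adjusted p = 0.018) lost the call without NaHS 1 (0.0691) or NaHS 2 (0.0668). HXT6 (1.36, adjusted p = 0.064) and HXT7 (1.99, adjusted p = 0.0323), high-affinity copies whose coding sequences are 99.8% identical, cannot be separated, and HXT7 lost its call when control 3 or any 1 of the NaHS libraries was left out (0.0601 to 0.101). Invertase SUC2, which glucose represses, had 27.2, 19.5 and 14.2 FPKM with NaHS, against 4.49, 3.43 and 5.05 FPKM in the controls (1.97, adjusted p = 0.00179). In glycolysis the enolases fell, ENO1 to 1797, 2755 and 2257 FPKM with NaHS, against 6731, 13960 and 7618 FPKM in the controls (-2.0), and ENO2 by 1.38. The ENO pair is 94.8% identical, and ENO2 lost its call without NaHS 1 (0.082) or NaHS 2 (0.0867).

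Many chaperone genes rose, while more of the genes listed as linked to drying fell than rose. Of 30 tested heat shock chaperones and sorting factors 13 rose (43.3%, between 9 and 16 with 1 library left out) and 2 fell (1 without NaHS 1), with a median change of 0.97. HSP104, which pulls proteins out of aggregates, had 87.2, 123 and 149 FPKM with NaHS, against 28.0, 9.61 and 36.2 FPKM in the controls (2.39, SE 0.44, adjusted p = 0.00814). The Hsp70 SSA4 had 148, 286 and 266 FPKM with NaHS, against 60.5, 42.4 and 57.0 FPKM in the controls (2.07), and HSP82, an Hsp90, had 155, 199 and 192 FPKM with NaHS, against 68.6, 59.5 and 75.5 FPKM in the controls (1.41). SSA1 and SSA2, which are 96.8% identical, rose by 1.04 and 1.63. MDJ1, a mitochondrial co-chaperone, changed by 2.91 and lost its call without NaHS 2 (0.0521) or NaHS 3 (0.0519). HSP26, a small chaperone that binds unfolded proteins, moved the other way, with 426, 466 and 402 FPKM with NaHS, against 1464, 2308 and 2280 FPKM in the controls (-2.20, adjusted p = 0.000622). HSP78 was at 13.3, 25.5 and 22.1 FPKM with NaHS and at 0 in the controls.

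SIP18 (YMR175W, chromosome XIII, 611016 to 611255), a hydrophilin, a kind of small hydrophilic protein made on drying, had 12.03, 8.41 and 16.4 FPKM with NaHS, against 834, 2235 and 1715 FPKM in the controls. It was the largest fall of all genes tested (-6.84, SE 0.38, adjusted p = 6.03e-05). Its paralog GRE1 was at 0 with NaHS and at 147, 329 and 190.3 FPKM in the controls. The membrane-stabilising HSP12 had 60.9, 152 and 119 FPKM with NaHS, against 657, 857 and 1325 FPKM in the controls (-3.12). Of 10 tested genes listed as linked to drying, not all of them hydrophilins, 6 fell (60.0%, 5 or 6 with 1 library left out) and 2 rose. Neither rise held when control 3 or any 1 of the NaHS libraries was left out. Of 23 tested stationary-phase and general stress genes 9 fell and 3 rose. FMP16 (YDR070C, chromosome IV, 588098 to 588379), a mitochondrial protein of stressed cells, had 19.2, 24.2 and 29.3 FPKM with NaHS, against 395, 374 and 292 FPKM in the controls (-3.82, SE 0.22). The count that rose was 1 without control 3 or NaHS 1 and 0 without NaHS 3. The stress activator gene MSN4 (0.93) and the post-diauxic factor GIS1 (0.98) passed with all libraries, while MSN2 and RIM15 were at 0 throughout. GIS1 lost its call without NaHS 3 (0.0561), and MSN4 without control 2 (0.065), control 3 (0.0697), NaHS 1 (0.0663) or NaHS 3 (0.0557).

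The plasma membrane and the wall changed as well. MRH1 (YDR033W, chromosome IV, 508147 to 509109), a membrane protein related to HSP30, had 1267, 1805 and 1619 FPKM with NaHS, against 194, 123 and 146 FPKM in the controls (3.34, SE 0.24, adjusted p = 0.000119). Its paralog YRO2 rose by 1.85. Of 14 tested genes of eisosomes, which are static furrows of the membrane, and of related domains 5 fell and 3 rose, and 3 fell without control 3, NaHS 1 or NaHS 2. The core protein LSP1 had 69.6, 73.6 and 85.6 FPKM with NaHS, against 203, 314 and 313 FPKM in the controls (-1.82), and SEG1 changed by -1.39. The other core protein PIL1 had a change of -1.16 that lost its call without control 3 (0.063), NaHS 1 (0.0507) or NaHS 2 (0.0565). Of 28 tested wall protein genes 9 rose (32.1%) and 4 fell, and 6 rose without control 3, NaHS 2 or NaHS 3. PST1, a surface protein induced by wall damage, had 521, 791 and 784 FPKM with NaHS, against 96.4, 123 and 148 FPKM in the controls (2.50). The mannoprotein CWP2 rose by 2.07 and the glucan remodelling enzyme GAS1 by 1.70. PIR3, a wall protein with internal repeats, had 327, 402 and 562 FPKM with NaHS, against 2209, 2251 and 2209 FPKM in the controls (-2.40), and the low-oxygen mannoproteins TIR1 and DAN1 changed by -2.22 and -2.05.

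Few genes of nutrient signalling and autophagy passed. The shares over all genes tested were 6.26% risen and 11.3% fallen. Of 28 tested genes of nutrient signalling and lifespan GIS1 and MSN4 passed, both up and, as given above, not with every library left out. Without control 1 the count was 3 up and 2 down. Of 21 tested autophagy genes 3 fell (14.3%, against 11.3% of all genes) with any library left out, the mitophagy factor ATG33 (67.0, 51.4 and 46.5 FPKM with NaHS, against 196, 387 and 258 FPKM in the controls), the conjugation component ATG5 (-1.52) and the receptor ATG34 (-1.12). The ubiquitin-like ATG8 did not pass (0.06, adjusted p = 0.898). Of 11 genes, vacuolar proteases and their inhibitors with the surface protease YPS1, 6 fell, and 4 did without control 3, NaHS 2 or NaHS 3. The inhibitors PBI2 (-3.03) and PAI3 (-2.65) fell, and so did the proteases APE3 (-1.485), CPS1 (-1.21), PRC1 (-1.24) and YPS1 (-0.82). PRC1 and YPS1 lost their calls without control 3, NaHS 2 or NaHS 3, and YPS1 also without NaHS 1. The proteases PEP4 (-0.32, adjusted p = 0.271) and PRB1 (-0.35, adjusted p = 0.345) did not pass, nor did APE1, DAP2 and ATG42. Of 12 tested trehalose and glycogen genes 1 fell (2 without control 1) and none rose. In translation 2 of 131 cytosolic ribosomal protein genes rose, RPL7B and RPS14B, and 1 fell, RPL20B. The fall was lost with any library left out, both rises without control 3, NaHS 1 or NaHS 3, that of RPL7B also without control 2 (0.0553) and that of RPS14B without NaHS 2 (0.0966). Of 58 ribosome assembly genes 2 rose, 11 without control 1, 0 without control 3 or NaHS 1 and 1 with any of the others left out. Of 61 mitochondrial ribosomal proteins 7 rose (11.5%, against 6.26% of all genes), 4 without control 2, 1 without NaHS 2, 2 without NaHS 3 and 0 without control 3 or NaHS 1.

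The remaining large changes named by the rule fell into no pathway list or into lists with few calls. PHO89 (YBR296C), a sodium-phosphate transporter, had 38.7, 73.8 and 64.6 FPKM with NaHS, against 8.81, 5.14 and 5.15 FPKM in the controls (3.01, SE 0.30, adjusted p = 0.000499). HRK1 (YOR267C), a kinase that activates the plasma membrane proton pump, had 88.2, 66.9 and 94.2 FPKM with NaHS, against 13.4, 0.479 and 22.2 FPKM in the controls. Control 2 was far below the other controls, and the change of 3.40 was 2.19 without it. The call was lost without NaHS 1 (0.0828), NaHS 2 (0.0715) or NaHS 3 (0.0827). The putative wall protein ANS1 had 255, 543 and 826 FPKM with NaHS, against 161, 44.5 and 25.4 FPKM in the controls (3.07), and lost the call without NaHS 2 (0.0532) or NaHS 3 (0.0518). YDR222W, of unknown function, had 69.8, 102 and 118 FPKM with NaHS, against 33.1, 4.57 and 13.6 FPKM in the controls, and rose by 2.76 (adjusted p = 0.0126).

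MMF1, a mitochondrial protein that removes reactive enamines made by branched-chain and threonine metabolism, had 66.3, 76.1 and 2.48 FPKM with NaHS, against 535, 892 and 685 FPKM in the controls (-4.72, SE 1.02, adjusted p = 0.0152). NaHS 3 was far below the others, and without it the change was -3.26 (adjusted p = 0.000834). Its paralog HMF1 was at 0 with NaHS and at 113, 234 and 145 FPKM in the controls. FMP46, a mitochondrial redox protein, had 15.8, 19.3 and 15.7 FPKM with NaHS, against 176, 249.5 and 203 FPKM in the controls (-3.55). DIA1, of invasive growth, overlaps the open reading frame YMR316C-A on the opposite strand and had 7.39, 25.4 and 17.8 FPKM with NaHS, against 291, 146 and 187 FPKM in the controls (-3.64). YOR385W, of unknown function, had 0.588, 7.16 and 9.75 FPKM with NaHS, against 132, 68.1 and 82.9 FPKM in the controls (-4.14). The groups did not overlap for either gene.

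In all, 42 rows were at 0 in the 3 NaHS libraries and above 0 in the 3 controls, 15 of them with 10 FPKM or more in each control, and 27 rows showed the reverse, 7 of them at 10 FPKM or more. The highest of those at 0 with NaHS were LEU1, GRE1, HMF1, AAC1 and the small nucleolar RNA SNR161. On the other side were MRS4, the kinase YPK2, the methyltransferase EFM6, ARO10 and the pseudouridine synthase PUS6, with NaHS means between 22.1 and 46.0 FPKM. These zeros call for care, since 777 protein-coding genes were at 0 in all 6 late libraries and 271 of them had a mean of at least 10 TPM in early cultures, as that table's unit was read.

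Early cultures treated with NaHS before 72 h showed which of these changes differed between the stages. Early values come from a separately normalised table whose header names no unit and were read as TPM from their column sums, so only the NaHS minus control difference within each stage was compared, in a limma fit to all 12 libraries with an interaction of stage and treatment. The late change differed from the early one in 1159 of 4791 genes (24.2%), higher in 803 (16.8%) and lower in 356 (7.43%). This split depended on scaling: median-ratio scaling gave 471 higher and 551 lower. The genes that follow were picked by their late change, which enters the difference and favours one in advance. Their early changes are given as sizes, with no test of each early change against 0. ARO9 had 19.7 ± 4.83 TPM with NaHS and 110.3 ± 24.1 TPM in controls in early cultures (SD, n = 3 each), a change of -2.43 opposite to the late 5.88. The difference was 8.31 (SE 0.60, adjusted p = 7.6e-06). ARN1 (late 3.12, early -1.65), FIT2 (2.68, -2.05), MRH1 (3.34, -1.42), PHO89 (3.01, -1.71) and BAT2 (2.51, -0.88) likewise were higher with NaHS late and lower early, with adjusted p of the difference from 4.69e-06 to 0.000414. HAP4 was higher at both stages and more so late (3.46, 1.40). SIP18 was lower late and level early (-6.84, -0.08), as was FMP46 (-3.55, -0.02). MET6 was lower at both stages and more so late (-6.29, -2.69), and BAT1 too (-3.75, -0.91). CTT1 (-3.51, -4.14, adjusted p of the difference 0.208) and ICL1 (-4.43, -2.93, 0.17) had large falls at both stages that were not shown to differ.

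**Figure D5:**
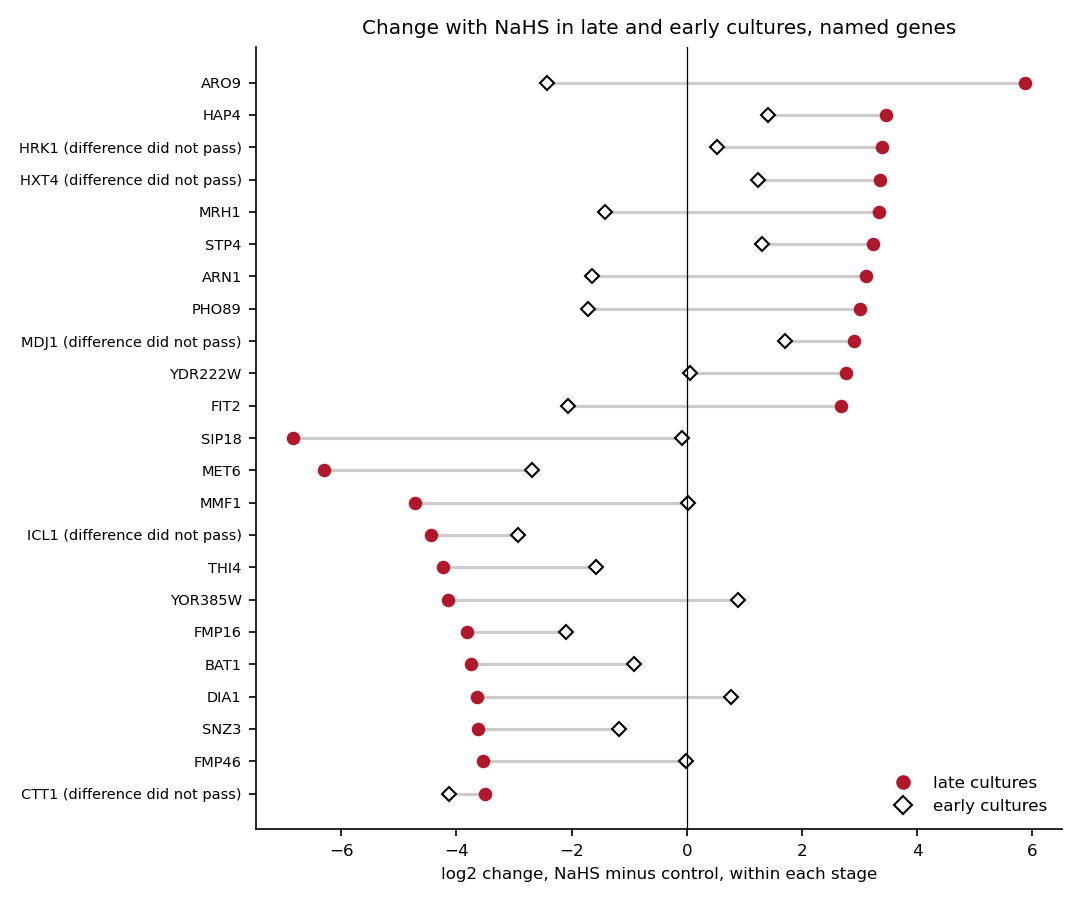
Log2 change with NaHS (NaHS minus control, horizontal axis) in late cultures (filled circles) and early cultures (open diamonds) for the genes with the largest late changes that could be tested at both stages, joined by a line for each gene. ARO9, MRH1, ARN1, PHO89 and FIT2 lie on opposite sides of 0 in the 2 stages, while CTT1 and ICL1 are far below 0 in both.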

How the data were processed

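RNA-seq was done on total RNA of 12 libraries in 4 groups of 3. Per the labels' protocols, TRIzol RNA was cleared of DNA, and paired reads of TruSeq libraries from an Illumina NovaSeq were trimmed with SeqPrep and Sickle and aligned with TopHat. The submitters' processing notes name Bowtie 0.12.2 and build R64. Which quantifier and annotation were used, and whether strand entered the counting, is not given in the sources used here.

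The late table was deposited by the authors as FPKM, per the file headers. The header of the early table names no unit; the values the authors deposited there were read as TPM because each column has nearly the same sum, close to the scale of TPM, and a per-million unit without length scaling was not tested. Levels were not compared between the tables. In the late table each library's values below 300 FPKM were whole multiples of 0.01 times a factor of its own (100% within 0.00055), from 0.91092 to 1.22943, both in controls; these are not whole reads and give no depth. An alternative divided the factors out.

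Of 7555 late rows, 429 name no gene and took 4.70% to 5.30% of the totals; of the other 7126, 6162 matched the RefSeq gene table. Genes above 0 in all 6 libraries with a mean of at least 1 FPKM were tested on log2(FPKM + 1) with limma 3.58.1 in R 4.3.3 (eBayes with a trend, 2-sided, Benjamini-Hochberg over all genes tested, threshold 0.05). An exact permutation test of 3 against 3 cannot go below 0.1 and was not used. The interaction fit took all 12 libraries and genes above 0 in each. The code was tested on simulated data. Promoters (300 bases before the start codon) came from the RefSeq R64 genome, and coding identities from Biopython 1.88 alignments.

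The genes named were the 12 largest rises and falls with a mean of at least 10 FPKM and no overlap, up to 3 rises and 3 falls of each list with any member a pathway step needs, the 5 highest genes at 0 in each group alone, and pairs called in opposite directions. Members and lists were chosen with earlier results of these data known. The protein sequences planned for a pair are not printed here.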

Additional observations from a re-analysis of the deposited data

Results flagged for a closer look

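For 22 named genes the late change with NaHS differed from the early one in the limma interaction fit (adjusted p below 0.05, 3 libraries in each of 4 groups). Over all genes 1159 of 4791 (24.2%) did. The 22 were picked by their late change, which enters the difference, so a difference was favoured in advance. They are a list of values and no test of the named genes as a set. Values are late minus early on the log2 scale.

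Among genes higher with NaHS late, the difference was 8.31 for ARO9, 4.77 for ARN1, 4.76 for MRH1, 4.73 for FIT2, 4.72 for PHO89 and 3.39 for BAT2. It was 2.71 for YDR222W, 2.06 for HAP4, 1.92 for STP4, 1.52 for PYC1 and 1.05 for TRR1.

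Among genes lower with NaHS late, the difference was -6.76 for SIP18, -5.02 for YOR385W, -4.74 for MMF1, -4.40 for DIA1, -3.60 for MET6 and -3.52 for FMP46. It was -2.84 for BAT1, -2.66 for THI4, -2.45 for SNZ3 and -1.72 for FMP16. ARO8 had a difference of 0.70, its early change with NaHS being lower than its late change of -0.77.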

How the results depend on the processing

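The call count of 873 lay between 472 and 1052 with 1 library left out, that of higher genes between 118 and 393 and that of lower genes between 354 and 659. It was 557 with a log2 change of at least 1 in size required as well. Leaving out 1 library for the late minus early difference gave 770 to 1275 calls, 536 to 912 higher and 228 to 387 lower, and early control 3 set the lowest total. Median-ratio scaling turned the split of that comparison to 471 higher and 551 lower, and upper-quartile scaling gave 503 higher. The 10 highest rows took 13.6% to 16.5% of the total in early NaHS libraries and 7.28% to 7.61% in early controls. In the late libraries of both groups they took 13.0% to 16.9%. The cause of the turn in the split was not tested. No named gene changed direction. Of 185 named genes with a test 72 lost the call under some setting, all 72 with a library left out, 27 with equal totals, 19 with the library factors divided out (chosen after seeing the data), 13 with upper-quartile and 2 with median-ratio scaling.

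With the replicate number as a block 615 genes were called, 184 higher and 431 lower, 599 of them among the 873, and 30 named genes lost the call. Deviations of libraries with the same number correlated at -0.267, 0.116 and 0.092, so the number was not taken to pair the samples. NaHS 2 correlated best with the control of its own number, while NaHS 1 did so with control 2 (0.195) and NaHS 3 with control 1 (0.285).

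The depth is unknown, so no limit can be set on genes listed at 0.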
